A study of Rattus norvegicus with 92 samples.

Results

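In adult male Wistar-Kyoto (WKY) rats, 62 of 20508 measured rows, all of them transcript identifiers, were hippocampus-enriched. A row was taken as a member when its mean level in the hippocampus of air-exposed rats was at least 6 CPM (the reads of a row after every sample is scaled to the same total) and at least 5 times the mean air level in each of the other 7 tissues. Those tissues were hypothalamus, nasal epithelium, lung, liver, adrenal, adipose and muscle. The members were therefore chosen on the air samples, and what follows on their air levels is a description. The acrolein samples had no part in the choice and were used for the tests between tissues. All rats were exposed nose-only. Controls received filtered air, and the exposed group received acrolein, a reactive aldehyde found in smoke, for 4 h in all, at rising concentrations to begin with and then at 3.16 ppm. Tissues were taken directly after exposure, and 92 samples were sequenced. The hippocampus comparison held 5 air samples (replicates 4, 5, 6, 7 and 8; air replicate 2 was set aside) and 6 acrolein samples (replicates 9, 10, 11, 12, 14 and 15), and the hypothalamus comparison held 6 air and 6 acrolein samples.

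The hippocampus is a folded part of the forebrain that takes part in forming memories and in limiting the release of stress hormones. Its neurons are mostly excitatory cells packed into the pyramidal layers and the dentate gyrus, joined by local inhibitory cells. The hypothalamus is built of many small nuclei that control hormones, feeding and body temperature. Both regions hold neurons and glia, and so a transcript that sets them apart is one that differs between 2 brain tissues and not only between brain and body. The deposited identifiers are not paired with gene symbols, and 0 of them matched the reference gene table used here, so members are called by their rank in hippocampus air CPM, from 1 (highest) to 62 (lowest). For the same reason the hippocampal label could not be checked against named markers, and no sequence is shown. In a bulk sample, fewer cells of a type and less RNA per cell cannot be told apart.

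Recovered reads ran from 13199359 to 22288536 per hippocampus sample and from 12775556 to 18469744 per hypothalamus sample. Some hippocampus samples differed in rows enriched in other tissues. In air replicate 2, the summed level of 254 rows enriched in muscle by the same kind of rule was 31346 CPM, against 3850 to 9211 CPM in the other 11 hippocampus samples, of which acrolein replicate 11 was the highest (the next was at 6953 CPM). The 429 liver-enriched and the 313 nasal-enriched rows were also highest there, at 7054 CPM (1137 to 2518 elsewhere) and 4313 CPM (996 to 1545 elsewhere). In acrolein replicate 12, the 50 hypothalamus-enriched rows summed to 2323 CPM, against 314 to 1121 CPM in the 10 remaining samples, and acrolein replicates 14 (1121 CPM) and 11 (945 CPM) followed. The part of these other-tissue rows in the results was not tested. For some of the results, values with air replicate 2 or without acrolein replicate 12 are also given.

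The hippocampus-enriched rows spanned a wide range of levels in air. Their mean CPM ran from 7.45 to 1606, with a median of 141, and 36 of the 62 reached 100 CPM while 8 reached 1000 CPM. The top 4 rows held 29.7% and the top 10 held 57.7% of the summed level of 20408 CPM. Rank 1 averaged 1606 ± 605 CPM (SD, n = 5), rank 2 1595 ± 803 CPM, rank 3 1449 ± 683 CPM and rank 4 1406 ± 385 CPM. These 4 means lay closer together than the spread between their own samples, so their order is not settled. Ranks 5 to 8 averaged 1090 ± 269, 1055 ± 432, 1010 ± 297 and 1005 ± 181 CPM, and ranks 9 and 10 averaged 790 ± 211 and 775 ± 252 CPM. These CPM are not divided by transcript length, so the ranks order reads and not molecules.

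The distance to the next tissue was also uneven. The ratio of hippocampus air CPM to the highest of the other 7 tissues ran from 5.08 to 35.8 with a median of 7.05, and 15 rows reached 10 times while 5 reached 20 times. Rank 1 had the highest ratio, with 44.8 CPM in hypothalamus, 2.80 CPM in nasal epithelium and 0.923 CPM in muscle. It was followed by rank 34 (25.2 times), rank 28 (24.6 times), rank 39 (23.5 times) and rank 44 (23.1 times). Ranks 49, 18, 55, 47 and 37 came next, with ratios near each other, from 17.1 down to 15.8. Of these 10 rows, ranks 1 and 18 (357 CPM) were the most abundant, and the other 8 had air means between 22.4 and 184 CPM. At the edge of the rule, ranks 35 and 13 were the nearest inside the ratio limit (5.08 and 5.12 times), and the nearest rows outside it stood at 4.99 and 4.98 times. By level, ranks 62 and 61 were the lowest members (7.45 and 8.62 CPM), and the nearest rows left out had 3.76 and 3.23 CPM.

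The hypothalamus was the next highest tissue for 47 of the 62 rows in air. Nasal epithelium came next for 7, muscle for 4 (ranks 5, 16, 18 and 26), and lung, liver, adrenal and adipose for 1 each. The muscle rows were not alike: rank 18 had 357 CPM in hippocampus against 20.8 in muscle and 19.7 in hypothalamus, whereas rank 5 had 1090 CPM against 208 in muscle and 113 in hypothalamus. In acrolein samples the next tissue was hypothalamus for 45 rows, nasal epithelium for 6, muscle for 5, and adrenal, lung and adipose for 2 each, and it was the same tissue as in air for 54 rows.

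Summed over the 62 rows, the level in the hypothalamus was 2582 ± 264 CPM in air (SD, n = 6) and 2483 ± 269 CPM after acrolein (n = 6). The 5 hippocampus air samples ran from 16905 to 24473 CPM. Nasal epithelium (748 ± 141 CPM, n = 5), lung (599 ± 46.5 CPM, n = 8) and muscle (577 ± 120 CPM, n = 6) in air overlapped one another. Adrenal and adipose had lower means, at 377 ± 91.6 (n = 6) and 376 ± 126 CPM (n = 5), and liver was lowest at 168 CPM (138 to 190 CPM, n = 5). A sum is led by its largest rows, so the share of a single row was also taken. The median row in a sample of hypothalamus held 8.47 to 12.8% of its hippocampus air level in air and 8.01 to 12.7% after acrolein. In nasal epithelium that share ran from 1.42 to 4.34%, and in every sample of lung, adrenal, adipose, muscle and liver it was 1.52% or less.

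**Figure D1:**
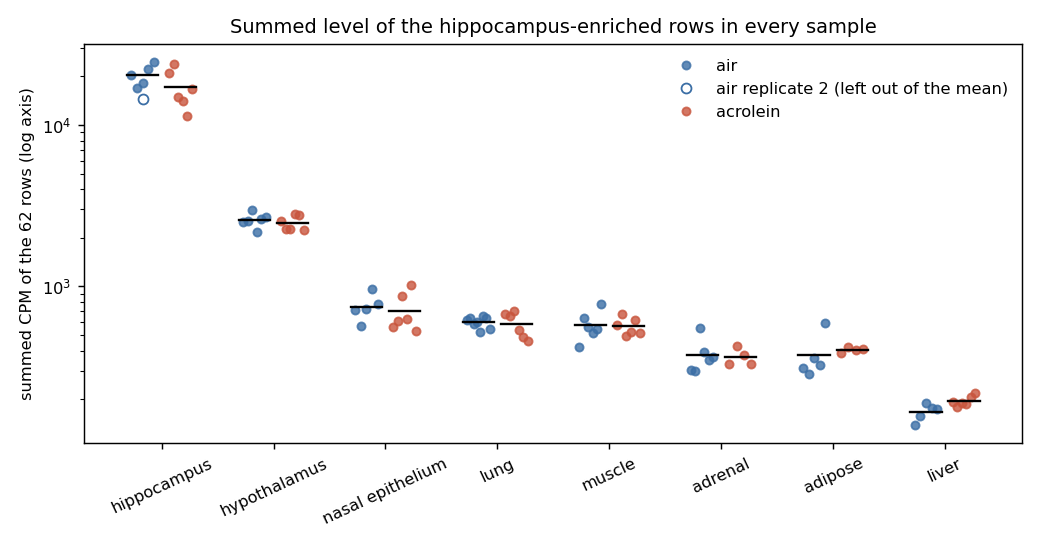
Summed CPM of the 62 hippocampus-enriched rows (log axis) in each sample of the 8 tissues, air in blue and acrolein in red, with a bar at the group mean. The hippocampus air samples were used to choose the rows and lie between 16905 and 24473 CPM, the open circle is air replicate 2 at 14376 CPM, and no hypothalamus sample exceeds 2986 CPM.

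To see whether the rows stood above the other tissues in samples that the rule had not used, the acrolein samples were compared. The hippocampus mean was above the mean of every other tissue for 62 of 62 rows. The ratio to the next tissue ran from 1.59 to 30.3, with a median of 6.64, and it reached 5 for 42 of the 62 rows, where 0.300% of all rows did so (60 of 19989). Without acrolein replicate 12 the count of members was 46, and no count over all rows is given for that run. The lowest hippocampus sample lay above the highest sample of all other tissues for 48 rows, against 0.976% of all rows. Without acrolein replicate 12, 52 members and 281 of all rows did so, where 195 of all rows did so with it. When the rule itself was applied to the acrolein samples it chose 49 rows, and 41 of them were members, which is 66.1% of the members and 83.7% of the rows chosen after acrolein.

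The 20 rows that fell short of 5 times had ratios between 1.59 and 4.93 after acrolein, and their median ratio in air was 5.49, compared with 8.27 for the other 42. The lowest was rank 42, ENSRNOT00000003567, with 33.8 CPM in hippocampus. Nasal epithelium was its next tissue, where its 6 acrolein samples ran from 4.31 to 31.6 CPM with a median of 22.9, and the 5 air samples from 2.86 to 15.8 CPM. Those nasal ranges overlapped. Rank 59 followed at 2.27 times its hypothalamus level and rank 51 at 2.68 times its muscle level, the latter with 1 muscle sample at 17.8 CPM and the other 5 at 10.3 CPM or lower. Of the 15 rows at 10 times or more in air, 14 stayed at 5 times or more. The exception was rank 62, at 15.02 times in air and 4.79 times after acrolein, with lung as the next tissue. Its lung samples included 1 at 4.70 CPM and 5 at 1.497 CPM or lower, and its ratio was 5.73 without hippocampus acrolein replicate 12, which had 0.0598 CPM.

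**Figure D2:**
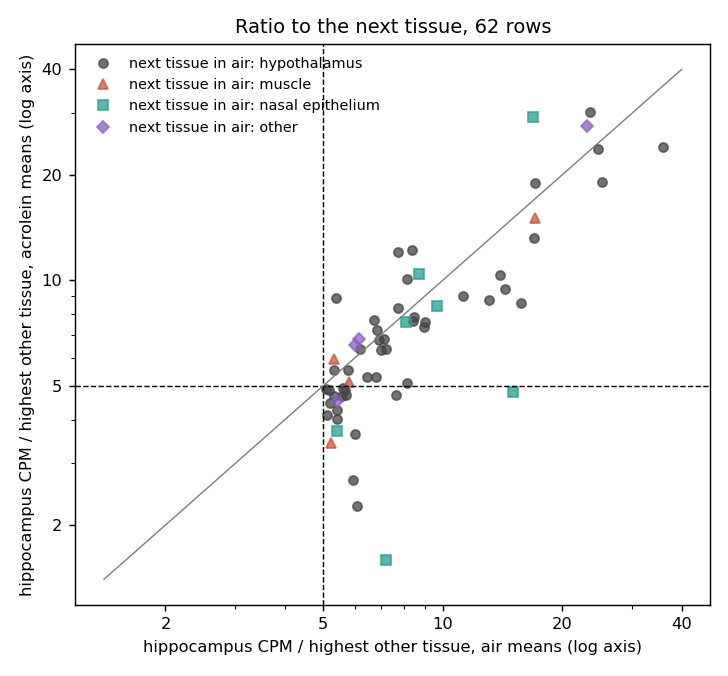
Ratio of hippocampus CPM to the highest of the other 7 tissues for each of the 62 rows, air means on the x axis and acrolein means on the y axis (both log axes), with the symbol showing the next tissue in air. Dashed lines mark 5 times and the grey line marks equal ratios; all points lie right of 5 in air by the rule, and 42 lie above 5 after acrolein.

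Hippocampus and hypothalamus were then tested against each other in the acrolein samples, 6 against 6, with limma on log2(CPM + 1). All 62 rows were called higher in hippocampus (called meaning an adjusted p that does not exceed 0.1 with a fold above 1.2), whereas 4.89% of all 19937 rows tested were. The median difference over the members was 2.58 on the log2(CPM + 1) scale, compared with -0.06 over all rows. A total of 43 members were called with a difference above 5-fold (0.411% of all rows), and 50 when acrolein replicate 12 was left out. The share of all rows above 5-fold is not given for the run without it, so 43 and 50 cannot be compared on that basis. In that run 1240 of all rows were called higher in hippocampus at any fold above 1.2, against 974 with the sample kept. All hippocampus samples lay above all hypothalamus samples for 51 of the 62 rows, compared with 2.31% of all rows (462). Without acrolein replicate 12 this held for 56 members and 741 of all rows. Tissue and table coincide in this comparison, since each tissue was deposited in its own table. The labels do not say which rat a sample came from, and the p-values treat all samples as independent. With the shared replicate number added to the fit, 59 members and 657 of all rows were called higher.

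On the log2(CPM + 1) scale the largest difference was that of rank 44. Its CPM in hippocampus were 57.8, 99.8, 51.7, 32.3, 59.7 and 61.4 for acrolein replicates 9, 10, 11, 12, 14 and 15, and in hypothalamus 1.93, 0.664, 2.75, 0.815, 1.10 and 1.25. No hypothalamus sample came near the lowest hippocampus sample, and the log2 difference was 4.65 ± 0.28 (SE; limma, adjusted p = 9.86e-07). Rank 1 followed at 4.59 ± 0.36 (limma, adjusted p = 5.97e-06), with 675 to 2545 CPM in hippocampus and 20.03 to 101 CPM in hypothalamus. Ranks 47, 28 and 39 differed by 4.57, 4.35 and 4.30. Rank 28 had the smallest adjusted p of any row in the comparison (limma, 8.12e-08) with an SE of 0.20. The added 1 CPM shrinks differences of rows near 0 in hypothalamus. Rank 62, with means of 5.97 CPM in hippocampus and 0.0101 CPM in hypothalamus, differed by 2.48, so the order is one of this scale and not of ratios.

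The smallest difference was that of rank 59. This row had 8.11, 7.49, 11.03, 6.28, 6.06 and 8.18 CPM in the hippocampus samples and 4.62, 2.35, 2.61, 5.01, 5.09 and 1.12 CPM in the hypothalamus samples. Its groups did not overlap, but the gap from 5.09 to 6.06 CPM was narrow, and the log2 difference was 1.06 ± 0.28 (limma, adjusted p = 0.031). Rank 61 differed by 1.48 ± 0.50 and was the nearest to the limit (limma, adjusted p = 0.0957). On this scale 1 CPM is added before the log, and its ratio of mean CPM was 9.47. Its hippocampus samples were split, with 9.78 and 19.7 CPM in acrolein replicates 9 and 10 and 0.918 to 2.41 CPM in the other 4, of which the lowest lay under the highest hypothalamus sample (1.05 CPM). Ranks 51, 56 and 33 differed by 1.79, 1.94 and 1.97.

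Members varied from one hippocampus sample to the next. In air the coefficient of variation (CV, the SD over the mean) of a row had a median of 0.321 and ran from 0.0941 (rank 13) to 0.745 (rank 55), and after acrolein it had a median of 0.437 and ran from 0.183 (rank 8) to 1.27 (rank 61). For comparison, the median CV over rows with a mean of at least 100 normalized counts was 0.227 in air (10980 rows) and 0.289 after acrolein (11257 rows), and all 62 members met that minimum in both groups. The CV was above 0.5 in 10 members in air and in 19 after acrolein, and 46 of the 62 had the higher CV after acrolein. The air CVs left out the air sample that was set aside, whereas the acrolein CVs included acrolein replicate 12. No CV is given without acrolein replicate 12, and these counts of members have no counterpart over all rows. Whether the CV of the members differed with exposure was not tested.

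Some samples were the lowest or the highest for many members. How much of the spread they made up was not tested, and the counts that follow have no counterpart over all rows. Acrolein replicate 12 was the lowest of the 11 samples for 31 members. It was under the median of the other 5 acrolein samples for 52 rows and under 0.5 times that median for 22, but over 2 times that median for 2. Acrolein replicate 14 was the lowest for 13 rows and under 0.5 times the median of the others for 10, and it had the lowest summed level, 11420 CPM. At the other end, acrolein replicate 10 was the highest of 11 samples for 21 rows and air replicate 8 for 19. These 2 samples were high for different rows: air replicate 8 had over 2 times the level of acrolein replicate 10 for 5 rows and under 0.5 times that level for 14. Rank 3 had 2653 CPM in air replicate 8 and 1028 CPM in acrolein replicate 10. Rank 39, in contrast, had 20.5 and 196 CPM, and rank 54 had 4.17 and 54.7 CPM. Air replicate 2, which the rule left out, was below the median of the 5 air samples for 52 rows and below their lowest sample for 29, and it was above their highest for 3. The rows were chosen for a high mean in those 5 air samples, so these counts are not independent of the choice. Rank 26 was among the 3 rows above the highest of them, with 373 CPM in air replicate 2 against 109 to 265 CPM in the 5 air samples.

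**Figure D3:**
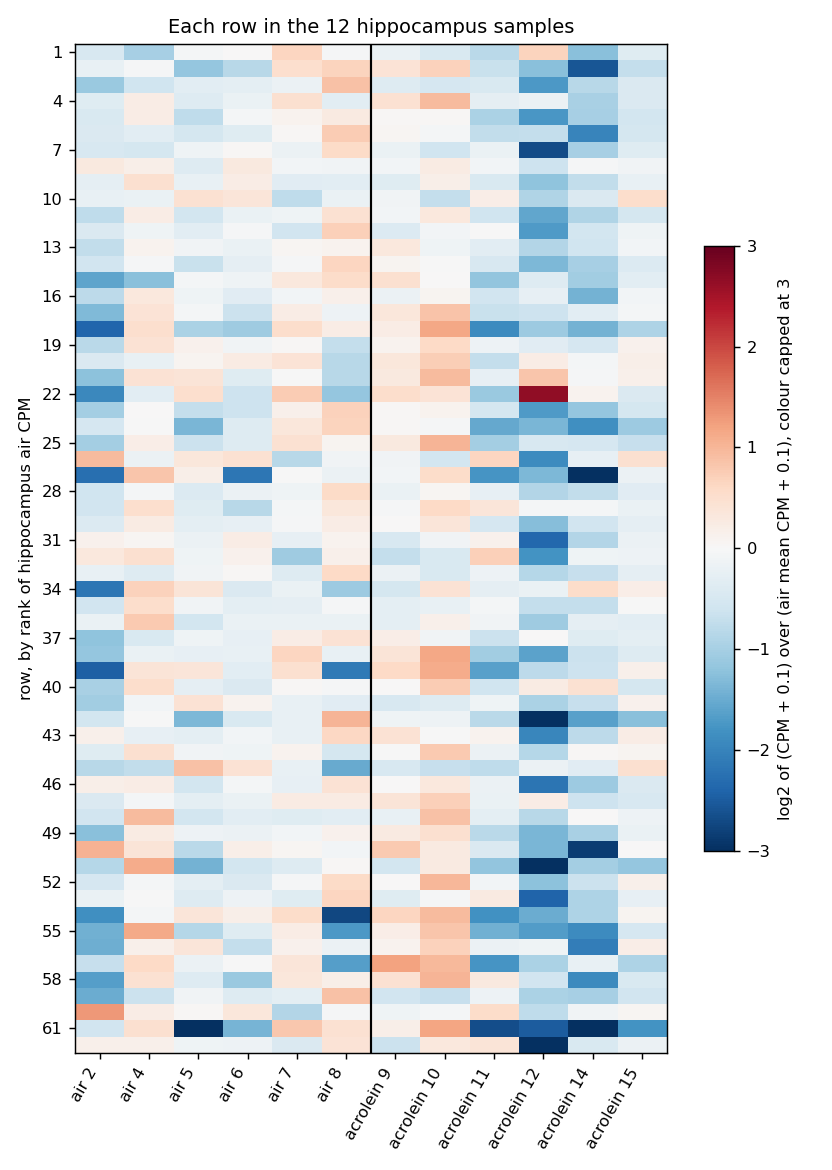
Level of each of the 62 rows (y axis, by rank) in the 12 hippocampus samples (x axis), as log2 of CPM + 0.1 over the mean of the 5 air samples + 0.1, red above and blue below that mean. In acrolein replicate 12, 55 rows lie below the air mean and 7 above it, rank 22 most of all, in acrolein replicate 14, 57 lie below it, in acrolein replicate 10, 22 do, and air replicate 8 mixes red and blue rows.

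To determine whether the rows differed with exposure, acrolein and air were compared in hippocampus with limma on log2(normalized count + 1). All 62 members passed the filter on low values, none was called, and 0% of all 19860 rows were; edgeR and DESeq2 on the recovered reads also called 0 rows. At an unadjusted p under 0.05, limma listed 3 members and 3.97% of all rows (789), edgeR 2 members and 857 rows, and DESeq2 6 members and 900 rows. With 1 sample left out, limma listed from 0 members (without air replicate 6, acrolein replicate 12 or acrolein replicate 14) to 11 (without acrolein replicate 10). Of all rows, 2.73, 2.68, 3.55 and 3.74% were listed in those runs, in that order. Limma also listed 0 members after rescaling to the same total (3.95% of all rows) and with no filter on low values (4.6%). With air replicate 2 included it listed 1 member and 4.31% of all rows. The smallest adjusted p of a member was 0.835 by limma. Normalized counts of the air and acrolein samples overlapped for all 62 rows, while 52 of all rows tested (0.262%) showed no overlap.

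The acrolein mean of log2(normalized count + 1) was lower for 56 of the 62 members and higher for 6, compared with 48.3% of all rows being lower. The number higher was 11 after rescaling to the same total, 12 by edgeR, 11 by DESeq2 and 15 with air replicate 2 included. The median difference was -0.37 on the log2(normalized count + 1) scale, beside 0.02 over all rows. A row entered for a high mean in the same 5 air samples, so this median is not independent of the choice of members. For rows chosen in the acrolein samples by the same limits the median was -0.22, and for rows chosen on the mean of both groups it was -0.35. The median of the members was -0.27 without acrolein replicate 12, -0.23 without acrolein replicate 14, and -0.28 with air replicate 2 included. Summed CPM were 20408 ± 3019 in air (SD, n = 5) and 17057 ± 4671 after acrolein (SD, n = 6), and the acrolein samples, from 11420 to 23979 CPM, reached from below the lowest air sample to nearly its highest. The lowest 3 acrolein sums were in replicates 14, 12 and 11 (11420, 14097 and 14963 CPM). These samples had 1121, 2323 and 945 CPM of hypothalamus-enriched rows. Replicate 15 was also below the lowest air sum (16803 CPM), with 727 CPM of those rows. The 5 air samples had 328 to 754 CPM of them, a range limited by the rule, which required low levels in these same air samples. The part of those rows was not tested.

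The 3 members with an unadjusted p under 0.05 were all among the most abundant, ranks 3, 5 and 7, with log2 differences of -0.69 ± 0.32, -0.71 ± 0.32 and -0.86 ± 0.39 (limma, adjusted p = 0.835 for each). Rank 5 had 1267, 646, 1052, 1167 and 1320 CPM in air and 1112, 1123, 566, 323, 548 and 746 CPM after acrolein. The groups shared the range from 646 to 1123 CPM, and acrolein replicate 12 was lowest.

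The 5 lowest differences were those of ranks 62, 42, 51 (-1.08 ± 0.59), 61 (-0.95 ± 0.87) and 27 (-0.91 ± 0.71), and the 5 highest those of ranks 22, 21, 29 (0.12 ± 0.25), 20 (0.11 ± 0.27) and 34 (0.10 ± 0.28). None of these 10 rows was called, and the 2 extremes on each side were followed by sample. ENSRNOT00000028096 (rank 22) had 210, 366, 170, 439 and 115 CPM in air. After acrolein it had 375, 344, 120, 1655, 279 and 192 CPM, so that acrolein replicate 12 stood apart from the 10 other samples of this comparison, none above 439 CPM. The log2 difference was 0.46 ± 0.55 (limma, adjusted p = 0.876), -0.024 without acrolein replicate 12, and 0.95 by edgeR and by DESeq2. This row was also uneven in hypothalamus, where air replicate 6 (192 CPM) and acrolein replicate 15 (173 CPM) stood apart from the other 10 samples (10.4 to 53.0 CPM). ENSRNOT00000080032 (rank 21) had 182 to 436 CPM in air and 270 to 618 CPM after acrolein, a log2 difference of 0.33 ± 0.28 (limma, adjusted p = 0.838). In hypothalamus its highest air sample was again replicate 6 (88.8 CPM), and its highest acrolein sample again replicate 15 (134 CPM).

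ENSRNOT00000101122 (rank 62) had 8.33, 6.77, 6.67, 5.49 and 9.99 CPM in air and 4.72, 9.38, 9.75, 0.0598, 5.37 and 6.54 CPM after acrolein. The value in acrolein replicate 12 was 1 read, where every other hippocampus sample had 82 reads or more. The log2 difference of -1.14 ± 0.90 (limma, adjusted p = 0.835) became -0.18 without that sample, and was -0.39 by edgeR and -0.41 by DESeq2. In hypothalamus the row had at most 1 read in each acrolein sample, and 0 or 1 read in 4 air samples and 7 reads in the other 2. ENSRNOT00000003567 (rank 42), the row with the lowest ratio after acrolein, had 62.3, 24.6, 45.8, 54.4 and 128 CPM in air and 57.4, 56.7, 36.0, 5.92, 20.5 and 26.5 CPM after acrolein. The difference was -1.09 ± 0.54 (limma, adjusted p = 0.835) and -0.68 without acrolein replicate 12. In hypothalamus it had 1.78 to 10.7 CPM in air and 1.32 to 3.60 CPM after acrolein, a difference of -1.02 ± 0.37 (limma, adjusted p = 0.963).

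**Figure D4:**
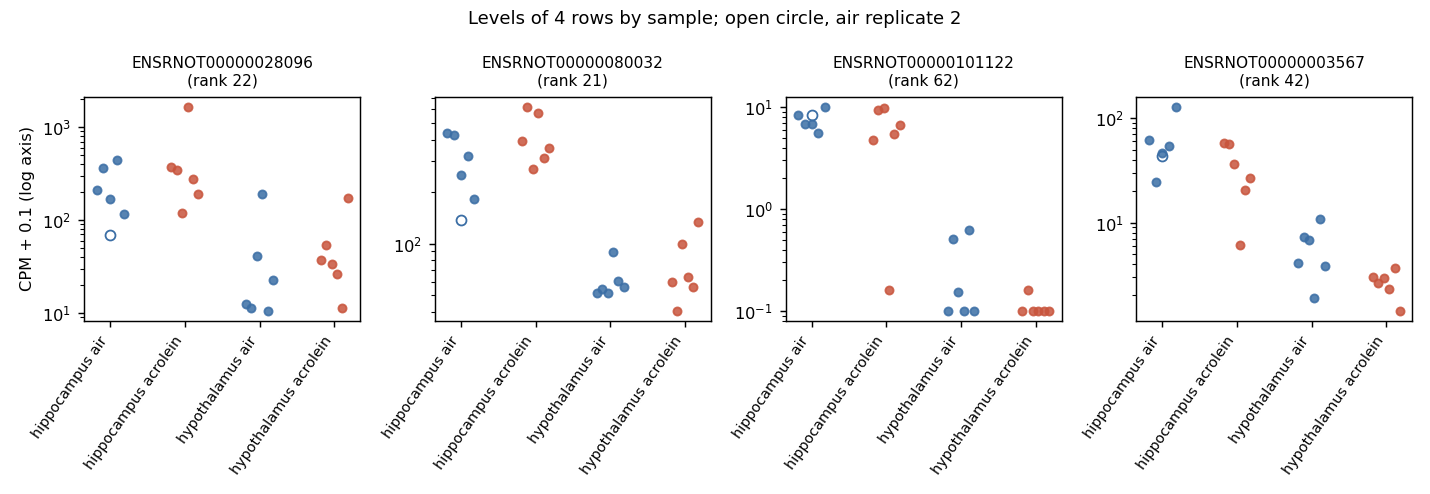
CPM + 0.1 (log axis) of 4 hippocampus-enriched rows in each hippocampus and hypothalamus sample, air in blue and acrolein in red, with air replicate 2 as an open circle. ENSRNOT00000028096 reaches 1655 CPM and ENSRNOT00000101122 has 0.0598 CPM in the same sample, acrolein replicate 12.

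In the hypothalamus, exposure was tested on samples that the choice of hippocampal levels had not used, although its air means had entered as a ceiling. None of the 62 members and 0% of all 19902 rows were called by limma. Limma listed 4 members (ranks 7, 32, 42 and 54) and 2.69% of all rows (536) at an unadjusted p under 0.05, edgeR called 0 rows, and DESeq2 called 1 row (0.00488%) that was no member. The median member difference was -0.17, beside -0.01 over all rows, with 41 rows lower and 21 higher (50.8% of all rows were lower), and differences ran from -1.02 (rank 42) to 0.74. The hypothalamus samples of the 2 exposure groups were near each other in summed level, from 2177 to 2986 CPM in air and from 2228 to 2826 CPM after acrolein. Without air replicate 6 of hypothalamus, 14 members and 2498 of all rows had an unadjusted p under 0.05, and the number called was still 0. That sample and acrolein replicate 15 were each the lowest of 12 for 13 members.

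**Figure D5:**
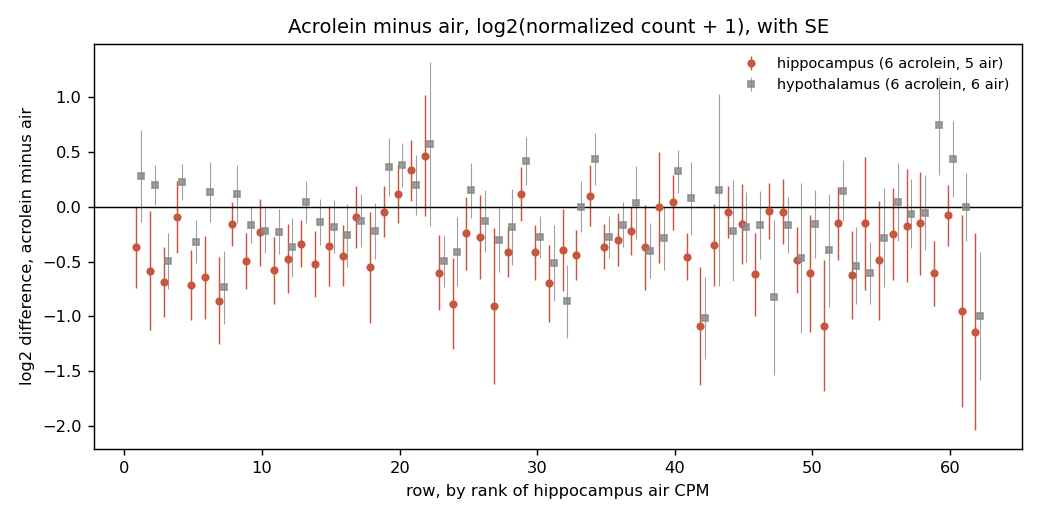
Log2 difference of acrolein minus air with its SE for each of the 62 rows (x axis, by rank), in hippocampus (red) and hypothalamus (grey). In hippocampus 56 of the 62 points lie below 0, by at most 1.14 in the direction of lower levels, and no point was called in either tissue.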

How the data were processed

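RNA-seq (mRNA libraries) was made from 8 tissues. Per the submitters' processing notes and the methods, Partek Flow aligned the reads to the rn7 genome with Ensembl gene models, and R 4.1.3 and DESeq2 served for the statistics. The authors deposited 1 table per tissue, whose values are counts scaled by sample-wise size factors, here a signal and not raw reads. CPM was computed as value over column sum, which cancels the size factors. Hippocampus air replicate 2 was left out of the main comparisons, and both adipose air samples numbered 8 were averaged. The smallest value above 0 in a column was taken as 1 read, and this gave whole reads in hippocampus and hypothalamus (100% of values, tolerance 0.01).

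Within a tissue, limma 3.58.1 (R 4.3.3, trend) was fitted to log2(value + 1) over rows above 0 in at least 2 samples, with Benjamini-Hochberg adjustment over all rows. A row was called when its adjusted p did not exceed 0.1 and its fold was above 1.2 or below 0.833, the limits of the study's methods. Fold changes on this scale understate changes of low rows. edgeR 4.0.16 (quasi-likelihood) and DESeq2 1.42.0 on recovered reads, pseudocounts, filters, scaling and leaving out samples were alternatives. Where DESeq2 returned NA for an adjusted p, it was kept so. The overlap and 5-fold counts without acrolein replicate 12 were added after seeing the data. The functions were tested on simulated reads.

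The members, gene lists and tests were chosen with earlier results of these data known. Rows named in the text are the 10 highest in level, the 10 highest in ratio to the next tissue, the extremes of each comparison and those nearest the limits of the rule, and ranks 26, 39 and 54 and the rows with an unadjusted p under 0.05 were chosen after their values were seen. Identifiers of the extremes in exposure alone are printed, since the tables do not pair them with symbols. The planned lists of hippocampal, synaptic and cell type markers were therefore not computed.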

Additional observations from a re-analysis of the deposited data

Results flagged for a closer look

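In 46 sets of values (the summed level of the members by tissue and group, the summed level of rows enriched in other tissues in the hippocampus groups, and the 4 rows named by identifier), the highest or lowest sample was examined for a wide gap to its neighbour, and 11 stood apart. Chance gives about 1 in 20 for independent sets that were not chosen by their values. These sets share samples, and 5 of the 11 concern rows picked as the extremes of the exposure comparison and 3 the air sample already set aside, so the number is not read against that share.

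Air replicate 2 of hippocampus held 3 of them, with 31346 CPM in muscle-enriched, 7054 CPM in liver-enriched and 4313 CPM in nasal-enriched rows (the next highest air samples had 6953, 1508 and 1467 CPM). Acrolein replicate 11 of hippocampus had 9211 CPM in muscle-enriched rows, the next highest being 5367 CPM. The summed level of the 62 members was highest in adipose air replicate 8 (596 CPM, next 362) and in adrenal air replicate 5 (549 CPM, next 393).

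ENSRNOT00000028096 stood apart in 3 groups. It had 1655 CPM in hippocampus acrolein replicate 12 (next 375), 173 CPM in hypothalamus acrolein replicate 15 (next 53.0) and 192 CPM in hypothalamus air replicate 6 (next 41.0). ENSRNOT00000080032 had 88.8 CPM in that last sample (next 60.9). ENSRNOT00000101122 had 0.0603 CPM in hypothalamus acrolein replicate 10, which is 1 read, while the 5 other samples had 0 reads.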

How the results depend on the processing

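The number of enriched rows was 101 at 4 times and 15 at 10 times the other tissues, and 59 to 71 when each air sample was left out in turn. It was 56 with air replicate 2 of hippocampus included. With each acrolein sample of hippocampus left out, 39 to 46 members reached 5 times the next tissue after acrolein. No count over all rows is given for these runs. In hippocampus, exposure gave 0 to 1 rows called among all rows with a sample left out (1 without air replicate 8, no member), and the median member difference ran from -0.47 to -0.23. In hypothalamus, 1 row that was no member was called without acrolein replicate 10. Every alternative run kept 0 members called in hippocampus and hypothalamus. Of the 4 named rows, ENSRNOT00000028096 changed sign in 1 of 19 alternatives, to -0.024 without acrolein replicate 12, and reached 0.76 without acrolein replicate 11 and 0.95 by DESeq2, and the other 3 kept their sign. The named rows' adjusted p ran from 0.723 to 0.997 over all alternatives.

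Between hippocampus and hypothalamus after acrolein, 61 to 62 members were called higher with a sample left out, beside 777 to 1240 of all rows. With a pseudocount of 10 CPM, 61 members and 824 of all rows were. With edgeR and TMM scaling all 62 were called, but of all rows 1300 were higher and 908 lower in hippocampus, against 974 and 1361 by limma, a change of scaling, transform and model together. Replicate numbers are shared between these tissues. With the number as a block, 59 members and 657 of all rows were called higher. Deviations of same-numbered samples correlated above 0.1 in 1 of 6 pairs, and 0 of 6 samples correlated best with its own number. Deviations also follow differences in tissue content between samples, so this cannot show whether equal numbers name the same rat. The block was therefore kept as an alternative. In air against acrolein no numbers are shared, and no paired analysis was possible. Rows at few reads, such as rank 62 in hypothalamus, are limited by depth.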
